A study of Mus musculus with 20 samples.

Results

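Ribosome footprints were counted in the livers of FVB/N mice at day 9 of treatment with an siRNA against Eif3m, the gene for the m subunit of translation initiation factor eIF3, or with a scrambled luciferase siRNA as the control. These are the day 9 footprint libraries of the deposited table, chosen by the assay, day and siRNA in their titles: 3 mice per group, 6 of the 20 libraries in the series. All mice were 6 to 8 weeks old, and both groups received lipid nanoparticles by tail vein at 0.5 mg of siRNA per kg, with 1 injection in 5 days. Each library came from the liver of a separate mouse, and the same mice also gave RNA libraries. The other libraries are these 6 RNA libraries and footprint and RNA libraries of 4 further mice at day 13.

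A translating ribosome protects a short piece of its mRNA from nuclease, the footprint, so a gene's footprint count depends on how much of its mRNA there is and on how densely ribosomes sit on it. Initiation factor eIF3 is a large complex that binds the small ribosomal subunit, helps to recruit the initiator tRNA and the mRNA, and keeps the subunits apart until a start codon is found. Subunit m belongs to its core of PCI and MPN domain proteins. In hepatocytes, the cells that make up most of the liver, the bulk of translation serves secreted plasma proteins, and metabolism of lipids, sugars, amino acids and foreign compounds.

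Values are given as CPM, the usual depth-scaled count, here with a library's total adjusted by its TMM factor, and changes as log2 of Eif3m siRNA over control. A gene "rose" or "fell" where edgeR's quasi-likelihood test with Benjamini-Hochberg adjustment gave an adjusted p below 0.05 over all genes tested. Total footprint counts were 7036106 to 7689829 in the control mice and 4502229 to 6160993 in the Eif3m siRNA mice. Albumin alone took 13.1% to 15.9% of control counts and 9.65% to 11.5% of Eif3m siRNA counts. Defining hepatocyte markers were abundant in all 6 mice. The 7 summed to 185294 to 225552 CPM in the controls and 129523 to 156122 CPM after Eif3m siRNA, but most of that is albumin: the other 6 summed to 43959 to 49376 CPM and 43536 to 46508 CPM, and only albumin of the 7 was called. Because the samples are bulk tissue, fewer cells of a type and less RNA or fewer ribosomes per cell cannot be told apart.

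The targeted gene had 79.4, 74.4 and 75.9 CPM in the 3 control mice and 5.77, 6.18 and 6.84 CPM in the 3 Eif3m siRNA mice. The groups were far apart, with little spread inside either, and Eif3m fell by a log2 change of -3.60 ± 0.16 SE (adjusted p = 3.4e-09). In the annotation Eif3m overlaps Ccdc73, and reads of overlapping genes could be divided between them.

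The other subunits of the complex did not fall with it. Of 14 eIF3 subunit genes tested, 6 rose, 1 (Eif3m) fell and 7 were not called, where 5.95% of all genes tested rose and 6.74% fell. The median log2 change of the 14 was 0.38, against 0.01 over all genes. Eif3c, a scaffold subunit, had 239.8, 209.5 and 231 CPM in controls and 301, 406 and 356 CPM after Eif3m siRNA, a rise of 0.64 ± 0.14 SE (adjusted p = 0.0061). The largest subunit, Eif3a, had 91.8, 97.8 and 107 CPM and then 130.3, 136 and 148 CPM, a rise of 0.48 ± 0.12 SE. Eif3b, Eif3g, Eif3i and Eif3k rose by 0.42, 0.43, 0.55 and 0.53. These calls rested on single mice: without control replicate 2, none of the 6 passed, with the adjusted p of Eif3c at 0.057, and 1, 3 and 2 subunits rose without control replicate 1, Eif3m siRNA replicate 2 and Eif3m siRNA replicate 3, while the median of the 14 stayed between 0.34 and 0.60 in every alternative tried. Eif3e, with 52.7, 37.9 and 48.8 CPM and 36.3, 63.2 and 65.9 CPM, and Eif3f, with 30.6, 35.5 and 46.6 CPM and 71.4, 44.8 and 43.4 CPM, had overlapping groups. Eif3j1 and Eif3j2 are near-identical copies with the same counts in every mouse, so they are 1 measurement and their split is uncertain.

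Over the whole liver, 1462 of 11522 genes (12.7%) changed, 685 upwards and 777 downwards. These are 5.95% and 6.74% of the genes tested, the shares to set beside each list count below. Called rises were larger than called falls: 257 of the rises and 185 of the falls were at least 2-fold, while 106 rises and 220 falls were under 1.5-fold. Among called genes, falls outnumbered rises at high levels. Among genes with a mean of at least 100 CPM, 82 rose and 292 fell, whereas below 5 CPM 130 rose and 55 fell. The test calls more genes where footprints are many, 30.8% at 100 CPM or more and 6.53% under 5 CPM. The median SE was 0.13 at 100 CPM or more and 0.34 under 5 CPM, so smaller changes could be called at high levels. The sizes of rises and falls were not compared at equal levels. TMM factors were 0.901 to 0.938 in controls and 1.04 to 1.12 after Eif3m siRNA. With library totals alone the median gene moved up by 0.24, 2310 genes were called, and rises were 82.5% of calls in place of 46.9%. All directions here are therefore relative to the median gene, and no absolute rate of translation was measured.

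**Figure D1:**
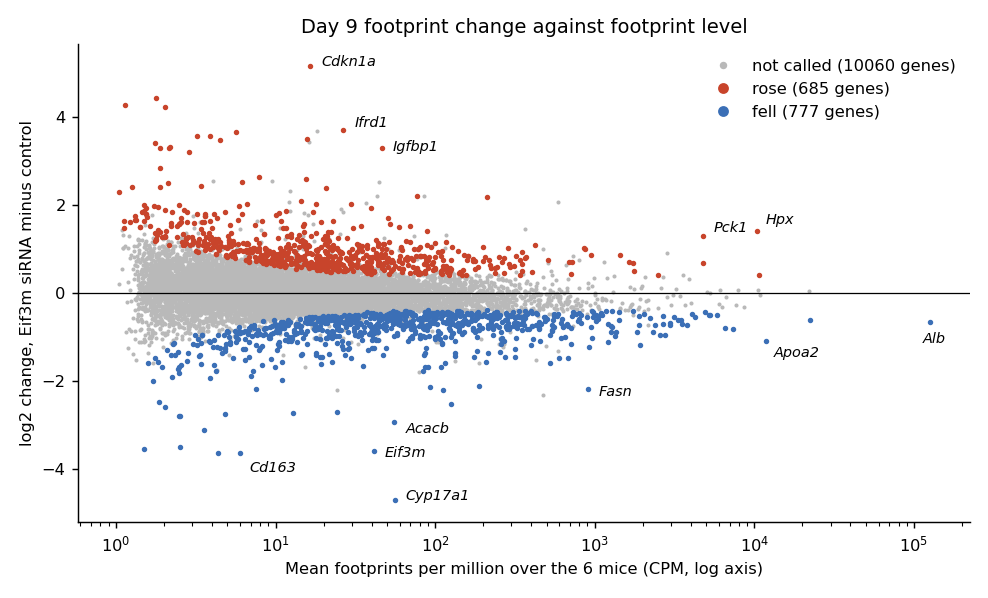
Each point is 1 of the 11522 genes tested, with its mean footprint level over the 6 mice on a log axis and its log2 change, Eif3m siRNA minus control, on the vertical axis. Red points rose (685 genes), blue points fell (777 genes) and grey points were not called; at 100 CPM and above, 292 genes fell and 82 rose.

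Among genes with a mean of at least 5 CPM and groups that did not overlap, the largest rise was that of Cdkn1a, which encodes the cell cycle inhibitor p21. Its footprints went from 0.758, 1.25 and 0.603 CPM in controls to 36.7, 38.2 and 21.8 CPM, a 35.8-fold rise (log2 5.16 ± 0.32 SE, adjusted p = 3.8e-07). Ifrd1, an mRNA known for an upstream open reading frame, went from 3.03, 4.99 and 3.31 CPM to 42.7, 57.05 and 48.5 CPM, 12.96-fold. Igfbp1, a secreted binding protein for insulin-like growth factors, went from 12.4, 7.77 and 5.42 CPM to 92.2, 92.2 and 67.96 CPM, 9.84-fold. Groups that do not overlap were a condition of this ranking, so their separation is no further support. Arhgef2, a guanine nucleotide exchange factor, rose 6.00-fold, and Aen, a nuclease induced by p53, rose 5.25-fold, from 6.06, 6.94 and 6.93 CPM to 34.4, 33.7 and 36.9 CPM. Pprc1, a coactivator of mitochondrial gene expression, rose 4.07-fold, from 2.42, 3.19 and 2.11 CPM to 10.9, 10.9 and 9.95 CPM.

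Some of the largest rises were in genes with almost no RNA reads. Eif3m siRNA libraries had at least 1 footprint in 17539 to 18143 genes and controls in 15796 to 16837, although control totals were larger. Among 152 pseudogenes tested, 19 rose and 6 fell. Whether the rises below are particular to their genes or part of this wider shift was not tested. Otop3, a proton channel gene, had 0.303, 0.277 and 1.81 CPM and 18.97, 7.35 and 5.13 CPM of footprints, but 0, 0.0276 and 0 CPM and 0, 0 and 0 CPM of RNA in the same mice. Hrh3, a histamine receptor gene, had 1.06, 1.53 and 3.92 CPM and 16.9, 11.6 and 11.97 CPM of footprints, and was at 0 in all 6 RNA libraries. The noncoding gene Tbrg3 had 0.758, 3.05 and 3.62 CPM and 50.5, 14.1 and 22.2 CPM of footprints, and at most 0.264 CPM of RNA. It overlaps Tcf20, and strand use in the counting is not given, so its reads cannot be assigned with certainty. The calls of Otop3 and Tbrg3 rest on single mice: without control replicate 2, for example, neither passed, and their highest adjusted p over the alternatives was 0.12 and 0.15. Snhg1, a noncoding host gene of small nucleolar RNAs, rose 5.76-fold, from 2.12, 2.22 and 1.21 CPM to 4.74, 17.5 and 9.33 CPM. Of 193 tested genes that RefSeq lists as long noncoding, 25 rose and 12 fell, where 5.95% and 6.74% of all genes did.

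The largest fall was that of Cyp17a1, a steroid hydroxylase, from 54.1, 86.2 and 182 CPM to 3.3, 5.88 and 2.8 CPM (log2 -4.72 ± 0.68 SE, adjusted p = 0.016). Control replicate 3 was more than the other controls combined. The call was lost when any 1 of the Eif3m siRNA mice was left out (highest adjusted p = 0.069). Here too, groups that do not overlap were a condition of the ranking. Cd163, a scavenger receptor of macrophages, fell from 10.00, 9.85 and 13.6 CPM to 0.412, 1.18 and 0.933 CPM (log2 -3.63 ± 0.32 SE, adjusted p = 1.04e-05). Dct, dopachrome tautomerase, fell by 2.74, with means of 22.5 and 3.43 CPM. Gstt3, a glutathione transferase, fell from 217, 206 and 219 CPM to 49.7, 28.7 and 33.3 CPM (log2 -2.53 ± 0.18 SE). Aacs, which activates acetoacetate for lipid synthesis, fell from 138, 141 and 173 CPM to 33.8, 26.9 and 42.3 CPM (log2 -2.13 ± 0.17 SE), and the organic anion transporter gene Slc22a26 fell from 136, 97.7 and 159 CPM to 39.6, 31.2 and 43.5 CPM (log2 -1.78 ± 0.18 SE). Calls of Cd163, Dct, Gstt3, Aacs and Slc22a26 held in every alternative.

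**Figure D2:**
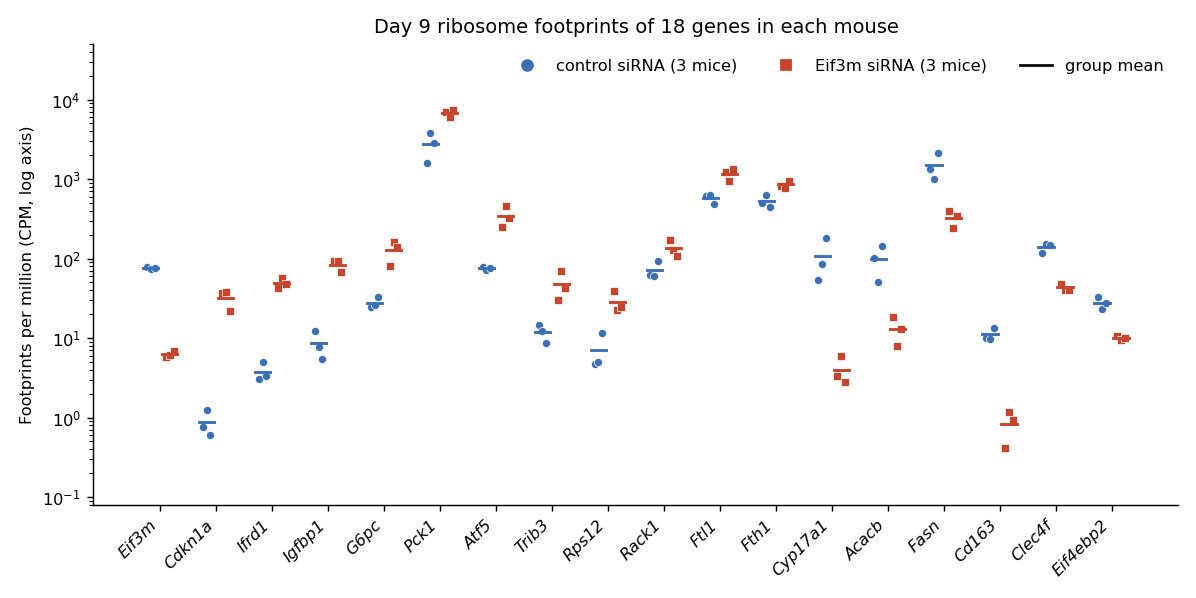
Footprint levels of 18 genes described in the text, 1 point per mouse on a log axis in CPM, blue circles for control siRNA and red squares for Eif3m siRNA, with a bar at each group's mean. Groups do not overlap in any of the 18, nor in 677 of all 685 rises and 768 of all 777 falls. Eif3m had 74.4 to 79.4 CPM in controls and 5.77 to 6.84 CPM after Eif3m siRNA. Cdkn1a had 0.603 to 1.25 CPM, then 21.8 to 38.2 CPM.

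Footprints of cytosolic ribosomal proteins went up as a group. Of 44 large-subunit genes tested (48 in the list), 30 rose and none fell, with a median log2 change of 0.75. By DESeq2, 33 rose and none fell. Of 33 small-subunit genes, 24 rose and none fell, with a median of 0.81. Against this, 5.95% of all genes rose and the median gene moved by 0.01. The 44 and 33 genes spanned -0.05 to 1.52 and 0.07 to 2.02. Rpl13a, of the large subunit, went from 31.5, 30.2 and 46.4 CPM in controls to 111, 109 and 90.2 CPM, a rise of 1.52 ± 0.17 SE (adjusted p = 7.7e-05). The peptide-exit-tunnel protein gene Rpl4 rose by 1.03 (means of 189 and 386 CPM), and Rpl12 by 1.30. In the small subunit, Rps6, the substrate of S6 kinase, went from 12.1, 10.8 and 15.8 CPM to 35.1, 25.00 and 24.6 CPM, a rise of 1.12 ± 0.19 SE (adjusted p = 0.0015), and Rps23 and Rpsa rose by 1.19 and 1.22. Rack1, a scaffold on the small subunit whose mRNA belongs to the same class, went from 62.1, 60.2 and 92.5 CPM to 173, 129 and 109 CPM. In each of these the lowest Eif3m siRNA mouse was above the highest control mouse, as in 677 of all 685 rises. Rps12 showed the largest value of the small subunit, 4.7, 4.99 and 11.5 CPM against 38.8, 22.8 and 24.6 CPM, but shares reads with its copy Rps12l2.

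Counts of called ribosomal protein genes depended on single mice more than the medians did. Without control replicate 2, 13 large-subunit and 16 small-subunit genes rose; without control replicate 1, 16 of each rose. The medians stayed between 0.65 and 0.97 and between 0.74 and 1.04 over all alternatives. Ribosomal protein genes have many processed copies and several host small nucleolar RNAs, so the values of single members are uncertain.

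Ribosomal protein and elongation factor mRNAs are known as TOP mRNAs, because they begin with a C followed by a run of pyrimidines that links their translation to growth signals. RefSeq starts (build GRCm38.p6) were available for 59 of the 77 ribosomal protein genes tested. At 14 of these 59 (23.7%) the annotated start was a C at the head of at least 5 pyrimidines, compared with 2.95% of the 8382 tested genes that have a start in the table and 3.01% of all 27025 genes of the table. The sequences below show 10 bases before and 20 bases from the annotated start of 5 genes that rose, to set a start with the run beside starts without it. Capitals mark the pyrimidine run that begins with C at the start; in Vim it is 4 bases, under the minimum of 5, and the last 2 have none.
Rps6 (chr4:86857348-86857377, minus strand): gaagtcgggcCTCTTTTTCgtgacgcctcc
Rack1 (chr11:48800350-48800379, plus strand): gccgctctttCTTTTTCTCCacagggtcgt
Vim (chr2:13574301-13574330, plus strand): ttgtccagtcCTCTgccactcttgctccgg
Rpl13a (chr7:45128726-45128755, minus strand): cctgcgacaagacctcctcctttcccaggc
Rps12 (chr10:23787190-23787219, minus strand): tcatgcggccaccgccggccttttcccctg
In Rpl13a and Rps12 a pyrimidine stretch lies a few bases inside the annotated start rather than on it. Having the run at the annotated start did not separate the ribosomal protein genes by their change: 10 of 14 with it rose (median 0.74) and 30 of 45 without it rose (median 0.79). Among other tested genes, 15 of 233 with the run rose and 19 fell (median 0.00). No match says only that these letters are not at this annotated start.

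The remaining TOP mRNAs held a similar median, 0.72 over 16 genes, of which 5 rose and none fell (8 rose without control replicate 3). Elongation factor subunits Eef1b2 (48.8, 47.9 and 67.05 CPM, then 98.2, 85.7 and 88.95 CPM) and Eef1g rose by 0.74 and 0.83. Vim, the intermediate filament gene of non-epithelial cells, went from 18.6, 19.1 and 23.4 CPM to 53.6, 39.7 and 39.97 CPM. The most abundant ones varied more. Eef2, the translocation factor, had 205, 282 and 458 CPM in controls and 903, 437 and 546 CPM after Eif3m siRNA, with overlapping groups and a log2 value of 0.99 ± 0.41 SE (adjusted p = 0.19). Eef1a1 had 666, 713 and 1227 CPM and 1874, 1040.1 and 1313 CPM (0.70 ± 0.30 SE, adjusted p = 0.18).

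Factors that assemble ribosomes went the same way. Of 60 large-subunit assembly genes 21 rose and none fell (median 0.45), and of 53 small-subunit assembly genes 12 rose and none fell (median 0.33). Nop56 and Nop58, core proteins of the particles that methylate ribosomal RNA, rose by 1.36 and 1.196. Rrp12, which acts in pre-ribosome export, rose by 1.57, from 9.24, 6.8 and 6.63 CPM to 23.7, 25.3 and 18.5 CPM. Bysl and Tsr1, late small-subunit factors, rose by 1.08 and 1.15. In the annotation Nop56, Nop58 and Tsr1 overlap small nucleolar RNA genes, and Nop56 also overlaps Idh3b, so reads could be divided between them. In the large-subunit list the helicase gene Ddx56 and the remodelling ATPase gene Mdn1 rose by 1.01 and 0.99. Leaving out control replicate 2 or 3 reduced the large-subunit count to 12 or 13. Other groups moved little. Over all genes tested 5.95% rose and 6.74% fell. Among 27 subunits of RNA polymerases I and III, 1 rose, which is Polr3d, and its call was lost in several alternatives. Of 76 mitochondrial ribosomal proteins 7 rose and 2 fell (median 0.08), among them Mrpl20 and Mrpl54, up by 1.01 and 1.06; without any 1 of the controls, or without Eif3m siRNA replicate 2, 4 rose, and without Eif3m siRNA replicate 1, 13; the falls were 0 without control replicate 2, and 1 without control replicate 1, Eif3m siRNA replicate 2 or Eif3m siRNA replicate 3.

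Other initiation factors rose in part. Among 20 genes of eIF1, eIF2, eIF2B, eIF5 and eIF6 and their partners, 8 rose and none fell (median 0.40), and 4 rose without control replicate 1 or 3, 5 without control replicate 2 or Eif3m siRNA replicate 2, and 13 without Eif3m siRNA replicate 1. Eif1, a guardian of start codon choice, went from 248, 252 and 305 CPM to 472, 407 and 518 CPM (0.79 ± 0.14 SE, adjusted p = 0.0018). Eif6, which keeps free large subunits from joining, rose by 0.85, and Eif2b4, a subunit of the eIF2 exchange factor, by 0.63. The cap-binding group had no common direction, with 1 rise and 3 falls among 16 genes and a median of 0.02. Its rise was Eif4g2, a scaffold that works without cap-binding protein, from 158, 137 and 154 CPM to 214, 303 and 274 CPM. Its falls were repressors and a kinase. Eif4ebp2, an inhibitor of the cap-binding protein eIF4E, fell from 32.7, 23.4 and 27.3 CPM to 10.5, 9.56 and 10.1 CPM (-1.47 ± 0.17 SE, adjusted p = 0.00011). Pdcd4, an inhibitor of the helicase eIF4A, fell from 404, 319 and 335 CPM to 179.6, 206 and 228 CPM (-0.79 ± 0.14 SE). Mknk2, an eIF4E kinase, fell by 0.58, a call lost in several alternatives. None of 8 eIF2-alpha kinase and phosphatase subunit genes was called by edgeR or by DESeq2, and 0 of the 8 had an unadjusted p below 0.05.

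In the integrated stress response, in which phosphorylated eIF2 favours translation of ATF4, 8 of 15 genes tested rose and none fell (18 in the list, median 0.92). Atf5, a transcription factor read through upstream open reading frames, went from 79.2, 72.7 and 76.5 CPM to 247, 461 and 328 CPM (2.18 ± 0.19 SE, adjusted p = 2.8e-05). Trib3, a pseudokinase that restrains AKT and ATF4, went from 14.7, 12.2 and 8.59 CPM to 30.5, 70.6 and 42.1 CPM (2.02 ± 0.34 SE, adjusted p = 0.0081). Gadd45a and the stress hormone gene Gdf15 rose by 1.85 and 1.66, and Sesn2, a sestrin that restrains mTORC1, by 1.12. Low genes moved most: Ddit3, which encodes CHOP, had 0.152, 0.832 and 0.452 CPM and then 5.16, 7.5 and 5.13 CPM, and the hormone gene Fgf21 had 0.455, 0.416 and 0.301 CPM and then 2.89, 4.12 and 4.98 CPM; both are below the level used for naming genes and were chosen after their values were seen. Atf4 itself was not among the rises, with 13.9, 16.1 and 15.5 CPM in controls and 10.5, 12.6 and 13.7 CPM after Eif3m siRNA (-0.30 ± 0.18 SE, adjusted p = 0.29). Its groups did not overlap, and its value was below 0. The amino acid genes known as ATF4 targets did not move together: of 12 tested (19 in the list), 2 rose and 1 fell (0 or 1 rose with any 1 mouse left out, and 2 fell without Eif3m siRNA replicate 1), with a median of -0.06 whose sign turned without Eif3m siRNA replicate 1, with no filter and with library totals. Shmt2, of mitochondrial folate metabolism, fell by 0.86. Of 22 aminoacyl-tRNA synthetase and scaffold genes 2 rose (Aimp1 by 0.999), where 5.95% of all genes did. The count was 6 without Eif3m siRNA replicate 1 and 1 without control replicate 2.

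Among mRNAs known for regulatory upstream open reading frames, 5 of 16 tested rose and none fell, with a median of 0.11 that turned negative when only genes of at least 5 CPM were kept. These were Ifrd1, Ddit3 and Atf5, given above, Mdm2, with 9.39, 10.4 and 9.34 CPM and 20.6, 22.3 and 17.9 CPM, and Ibtk (0.63). Upstream reading frames were not counted apart from the main frame here. Of 18 ribosome rescue and quality control genes 2 rose and 1 fell; 4 rose without Eif3m siRNA replicate 1, which was the only leave-out that kept the fall. The rises were Gtpbp2, a GTPase that resolves stalled ribosomes, by 1.38, and Zak, a kinase that senses collided ribosomes, by 0.83. Over all genes tested 5.95% rose and 6.74% fell.

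Targets of p53, the transcription factor that responds to DNA damage and to faults in ribosome production, rose in 15 of 27 tested genes and fell in 3 (34 in the list, median 0.81); 1 fell without control replicate 2 or 3 or Eif3m siRNA replicate 2 or 3. Beside Cdkn1a and Aen, Trp53inp1 went from 19.5, 15.96 and 13.6 CPM to 45.99, 82.04 and 59.4 CPM (1.94 ± 0.21 SE), and Plk3, a stress kinase, from 7.12, 9.99 and 6.03 CPM to 23.9, 21.03 and 21.5 CPM (1.51 ± 0.20 SE). Mdm2, the ligase that degrades p53, rose by 1.06, and Btg2, which restrains proliferation, by 1.10. Bbc3, which encodes the death effector PUMA, went the other way, from 6.06, 5.97 and 6.48 CPM to 1.65, 1.62 and 1.56 CPM (-1.93, chosen after its value was seen). Genes of S, G2 and M phase were mostly too low to test: 20 of 40 passed the filter, and 3 of these rose and 1 fell, with a median of 0.13; none rose without control replicate 2 or Eif3m siRNA replicate 3, 1 rose without control replicate 3, and none fell in those 3 leave-outs or without Eif3m siRNA replicate 2. Among 23 regulators of G1 and growth control 4 rose, namely Cdkn1a, Gadd45a, Jun (1.19) and Btg2.

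Of 22 cytosolic chaperone genes 8 rose and none fell (median 0.28), but 2 rose without control replicate 1, without control replicate 2 or without Eif3m siRNA replicate 3, and 4 without Eif3m siRNA replicate 2. Hspa8, the constitutive HSP70, and its exchange factor gene Hsph1 rose by 0.86 and 0.81 and held their calls in every alternative. Hspa8 went from 786, 1025 and 1266 CPM to 1877, 1653 and 2050.2 CPM, but overlaps small nucleolar RNA genes, so reads could be divided between them. In the endoplasmic reticulum list, 1 of 23 genes rose and 4 fell, among them Pdia3 (-0.49) and Calr (-0.42). Those 4 calls were lost when any 1 of the controls was left out, 2 genes fell without Eif3m siRNA replicate 2 and 1 without Eif3m siRNA replicate 3, the rise was lost without control replicate 2 or 3 or Eif3m siRNA replicate 2 or 3, and the median of -0.22 turned positive with library totals and without control replicate 1. None of 31 proteasome subunits was called by edgeR or by DESeq2, and 2 had an unadjusted p below 0.05 (median -0.15, which turned positive with library totals).

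**Figure D3:**
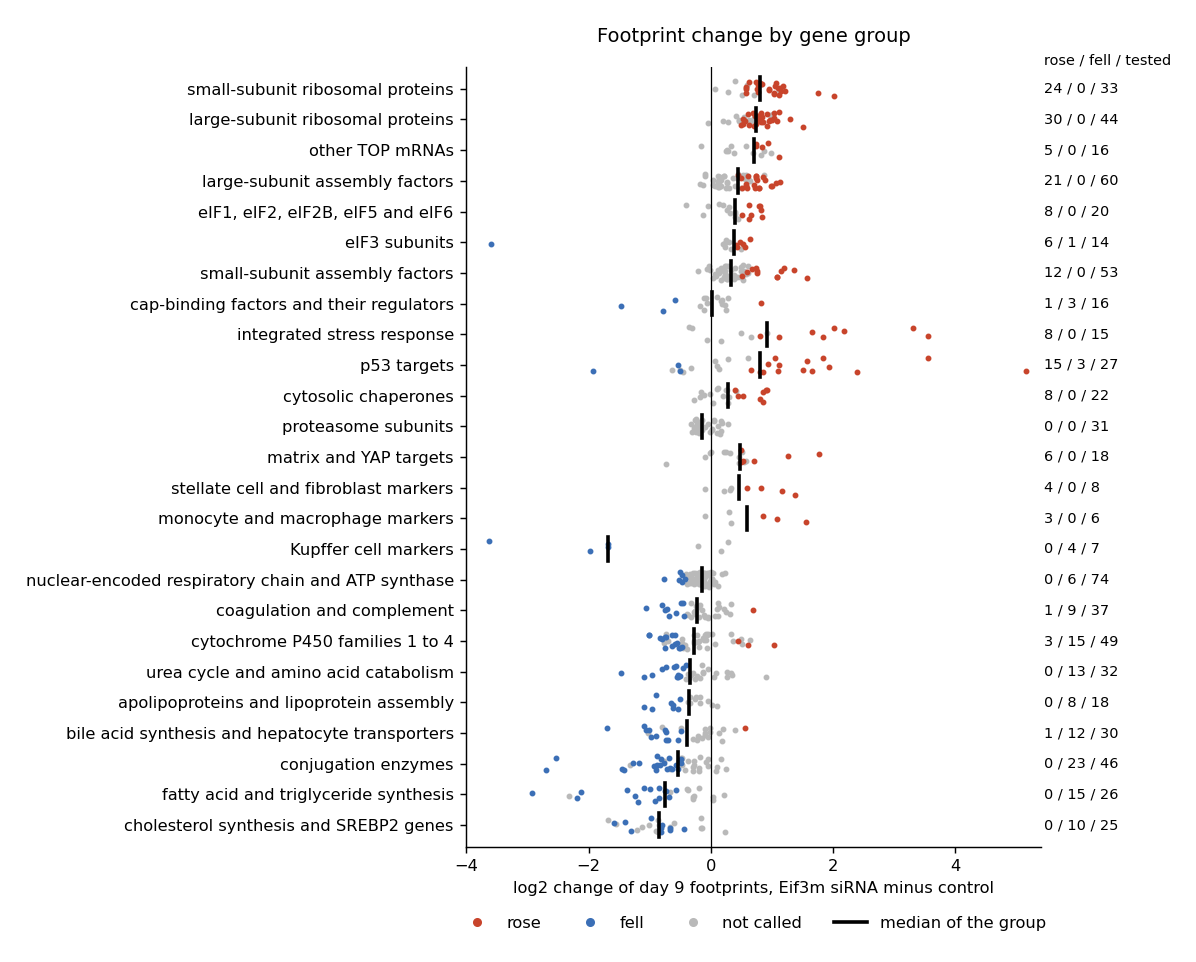
Each row is a gene group, each point a tested member at its log2 footprint change (red rose, blue fell, grey not called), the black bar the group's median, and the numbers at the right the rises, falls and members tested. Ribosomal protein groups have medians of 0.75 and 0.81 with no falls, and fatty acid and cholesterol synthesis have medians of -0.74 and -0.85 with no rises.

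Lipid synthesis fell most among the metabolic groups. Of 26 genes of fatty acid and triglyceride synthesis 15 fell and none rose, with a median of -0.74, where 6.74% of all genes fell. Fasn, fatty acid synthase, went from 1348, 996 and 2106 CPM to 391, 242 and 341 CPM (-2.19 ± 0.30 SE, adjusted p = 0.0039). Acly, which makes cytosolic acetyl-CoA, went from 489, 422 and 758 CPM to 267, 215 and 246 CPM (-1.198 ± 0.195 SE), and Scd2, a desaturase, fell by 1.37. In each the highest Eif3m siRNA mouse was below the lowest control, as in 768 of all 777 falls. Acacb, the mitochondrial acetyl-CoA carboxylase, had 101, 51.1 and 143 CPM and 18.1, 7.94 and 13.1 CPM (-2.93 ± 0.51 SE, adjusted p = 0.024), a wide spread in both groups, and its call was lost without control replicate 1 or without any 1 of the Eif3m siRNA mice (highest adjusted p = 0.083). Acss2 and Scd1, with log2 changes of -2.13 and -1.24, lost their calls without Eif3m siRNA replicate 1 (adjusted p = 0.061 and 0.093).

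Cholesterol synthesis and other SREBP2 genes fell in 10 of 25 and rose in none (median -0.85). Dhcr7, the last reductase of the pathway, went from 129, 90.3 and 149.8 CPM to 44.96, 39.1 and 55.05 CPM (-1.41 ± 0.19 SE, adjusted p = 0.00043), and Tm7sf2 fell by 0.98. Insig1, which retains SREBP in the endoplasmic reticulum, fell by 1.58, a call lost without Eif3m siRNA replicate 1 (adjusted p = 0.063). The count varied with the mice: it was 6 without Eif3m siRNA replicate 1 and 17 without control replicate 2. Fatty acid oxidation moved less, with 6 falls and 1 rise among 35 genes and a median of -0.22 that was 0.00 with library totals. Ehhadh, of peroxisomal oxidation, fell by 0.87; without Eif3m siRNA replicate 1, 12 genes of the list fell, and the rise was lost without any 1 of the controls or without Eif3m siRNA replicate 3.

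Several of the liver's main secreted proteins had fewer footprints, but falls were common among abundant genes of any kind. Of all 1213 genes with a mean of at least 100 CPM, 292 fell and 82 rose. Of 18 apolipoprotein and lipoprotein assembly genes 8 fell and none rose (median -0.36), and 5 fell without control replicate 2. With library totals 4 fell and none rose (median -0.13). Apoa2, a component of high-density lipoprotein, went from 16335, 16954 and 15079 CPM to 8565, 6554 and 7525 CPM (-1.09 ± 0.14 SE, adjusted p = 0.00018), while Apob, with 11503, 11209.6 and 10380.0 CPM and 9165, 11415 and 11435 CPM, had a log2 value of -0.05 ± 0.13 SE. Apoc3, an inhibitor of lipoprotein lipase, fell by 0.89. Albumin, the most abundant footprint of all, went from 145529, 139742 and 176177 CPM to 96577, 85987 and 110526 CPM (-0.65 ± 0.14 SE, adjusted p = 0.0075). Of 37 coagulation and complement genes 9 fell and 1 rose (median -0.23), and 5 fell without control replicate 2 or 3. With library totals 5 fell and 5 rose (median -0.003). Complement gene C9 fell by 1.05, and antithrombin gene Serpinc1 fell by 0.68, whereas C8a rose by 0.69. Of 37 acute phase and carrier protein genes 8 fell and 2 rose (median -0.22, which was 0.00 with library totals); 4 rose without control replicate 3, and 1 without control replicate 1, control replicate 2 or Eif3m siRNA replicate 3. Hpx, which encodes the haem scavenger hemopexin, went against the group, from 5857, 5255 and 5813 CPM to 14468, 16329 and 14157 CPM, 2.66-fold (1.41 ± 0.13 SE, adjusted p = 1.3e-05). Orm1, an acute phase glycoprotein, fell from 459, 379 and 460.4 CPM to 242, 171 and 225 CPM (-1.03 ± 0.15 SE). These secreted proteins are made by hepatocytes; the summed hepatocyte markers other than albumin overlapped between the groups (above).

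Many detoxification genes fell, where 292 of all 1213 genes with a mean of at least 100 CPM did. Of 46 conjugation enzymes 23 fell and none rose (median -0.53), and 15 fell without control replicate 1. Beside Gstt3, the bilirubin transferase locus gene Ugt1a5 went from 47.1, 28.7 and 50.3 CPM to 5.57, 5.88 and 7.78 CPM; its family shares exons, so reads may be divided among members. Gstt1 and Gsta4 fell by 1.27 and 1.17, and the sulfotransferase gene Sult1c2 fell by 1.42. Of 49 cytochrome P450 genes of families 1 to 4, 15 fell and 3 rose (median -0.28), and 8 fell and 1 rose without control replicate 2. With library totals 8 fell and 6 rose (median -0.06). Cyp2c29, Cyp2c37 and Cyp2c50 fell by 1.02, 0.83 and 0.79, and Cyp2u1 rose by 1.03. Several P450 genes are near-identical in sequence, so their split is uncertain. Of 30 bile acid and hepatocyte transporter genes 12 fell and 1 rose (median -0.39); the rises were 0 without control replicate 3 and 2 without Eif3m siRNA replicate 1. The uptake transporter genes Slco2b1 and Slco1b2 fell by 1.70 and 0.98, Slco2b1 from 158, 165 and 177 CPM to 60.2, 44.8 and 49.3 CPM, and Nr0b2, the nuclear receptor SHP, fell by 1.07. Among 30 hepatocyte transcription factor genes 2 rose and 2 fell, where 5.95% and 6.74% of all genes did (median -0.09, above 0 with library totals); none rose without control replicate 2 and 1 without control replicate 1, and 4 fell without Eif3m siRNA replicate 1 and 1 in each other leave-out but that of control replicate 3.

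Enzymes of glucose release and of glycolysis named here differed in direction. G6pc, the phosphatase that releases glucose, went from 24.2, 25.9 and 32.5 CPM to 79.8, 162 and 139 CPM, 4.61-fold (2.21 ± 0.25 SE, adjusted p = 0.00048). Pck1, the cytosolic PEP carboxykinase, went from 1586, 3816 and 2858 CPM to 6973, 5945 and 7394 CPM, 2.46-fold, with an adjusted p of 0.027 that exceeded 0.05 without control replicate 3 or any 1 of the Eif3m siRNA mice (highest 0.16). Its mitochondrial counterpart Pck2 went from 7.58, 16.1 and 16.1 CPM to 30.1, 27.9 and 31.9 CPM (1.17 ± 0.23 SE). The glycolytic kinase gene Pklr went the other way, and fell by 0.91. In the list of 27 glucose and glycogen genes 5 rose and 6 fell, with a median of -0.24. With library totals 7 rose and 3 fell (median -0.02). The falls were 9 without Eif3m siRNA replicate 1, 2 without control replicate 1 and 3 without control replicate 2 or Eif3m siRNA replicate 2. Without Eif3m siRNA replicate 3, 3 rose.

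Of 32 genes of the urea cycle and amino acid catabolism 13 fell and none rose (median -0.34), and 6 fell without control replicate 2. With library totals 5 fell and 3 rose (median -0.11). Ass1, argininosuccinate synthase, went from 3167, 3119.8 and 3913 CPM to 1377, 1797 and 2079 CPM (-0.96 ± 0.16 SE), and Prodh and Haao, of proline and tryptophan breakdown, fell by 1.47 and 1.09. In 74 nuclear genes of the respiratory chain and ATP synthase, 6 fell and none rose, where 6.74% of all genes fell, with a median of -0.14 that was above 0 with library totals. Falls in that list were 3 without control replicate 1, 2 without control replicate 2, control replicate 3 or Eif3m siRNA replicate 2, and 15 without Eif3m siRNA replicate 1. Iron genes included 4 rises and 2 falls among 20, with 4 falls without Eif3m siRNA replicate 1 and 1 without control replicate 2. Ferritin, which stores iron, rose in both chains (below), as did the haem oxygenase gene Hmox1, from 49.1, 51.1 and 57.9 CPM to 95.7, 104 and 125 CPM (1.04 ± 0.14 SE), and the iron exporter gene Slc40a1, from 238, 287 and 238 CPM to 381, 460.2 and 435 CPM (0.74 ± 0.13 SE). Steap3, an iron reductase, fell from 35.5, 41.9 and 40.7 CPM to 16.1, 12.6 and 16.02 CPM (-1.40 ± 0.16 SE). The metallothionein gene Mt1 had 582, 469 and 870.0 CPM and 427, 86.2 and 155 CPM, with Eif3m siRNA replicate 1 near the controls, and was not called. Of 20 NRF2 antioxidant genes 5 fell (3 without control replicate 1), with Nqo1 lowest (-1.30), and 3 rose, which are Hmox1 and both ferritin chains. None of 15 clock genes was called by edgeR or by DESeq2, and 2 had an unadjusted p below 0.05.

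Markers of non-parenchymal cells moved in different directions. Of 7 Kupffer cell markers, the resident macrophages of the liver, 4 fell and none rose (median -1.68). Clec4f went from 117, 150.4 and 147 CPM to 48.5, 40.6 and 40.7 CPM (-1.68 ± 0.14 SE, adjusted p = 7.03e-06), and Vsig4 and Folr2 fell by 1.98 and 1.69. The other markers, Cd5l (0.29), Timd4 (0.17) and Marco (-0.21), were not called, and the summed markers were 337 to 411 CPM in controls and 263 to 305 CPM after Eif3m siRNA. All 4 calls held in every alternative. General monocyte and macrophage markers summed to 164 to 201 CPM and then 271 to 308 CPM. Of 6 tested, 3 rose and 3 were not called, 1 of these below 0 (-0.10). The call of Cd68, 1 of the 3 rises, was lost without control replicate 2 or 3 (highest adjusted p = 0.088). Lyz2, lysozyme, went from 21.97, 27.3 and 30.4 CPM to 69.7, 77.9 and 87.7 CPM (1.56 ± 0.15 SE, adjusted p = 2.7e-05), and the integrin gene Itgam from 14.8, 12.5 and 16.9 CPM to 29.5, 31.2 and 32.97 CPM (1.09 ± 0.16 SE). Neutrophil markers gave 1 rise and 1 fall among 3 tested, both lost in leave-outs, and Elane was at 0 in all 6 libraries.

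Of 8 stellate cell and fibroblast markers 4 rose and none fell (median 0.47), with sums of 329 to 398 CPM and then 499 to 562 CPM. Collagen I gene Col1a1 went from 16.1, 9.71 and 11.5 CPM to 37.9, 30.3 and 28.8 CPM (1.38 ± 0.19 SE, adjusted p = 0.00037), and Col3a1 from 50.9, 37.6 and 40.2 CPM to 109, 92.9 and 86.2 CPM (1.16 ± 0.15 SE). The matrix and YAP target list had 6 rises of 18 genes (median 0.48), with 1 rise without control replicate 2 or Eif3m siRNA replicate 3, 2 without control replicate 1 and 3 without control replicate 3. Ctgf, which codes for a matricellular protein, rose from 3.79, 4.3 and 5.57 CPM to 11.8, 18.2 and 16.6 CPM (1.78 ± 0.23 SE), but Cyr61, another YAP target, had 16.7, 17.3 and 15.97 CPM and 5.16, 12.2 and 12.1 CPM (-0.73, not called). Sinusoidal endothelial markers summed to 553 to 597 CPM and then 562 to 700 CPM, and 1 of 8, Lyve1, rose (1.26). Among 17 antigen presentation genes 3 rose and 1 fell (5 rose without Eif3m siRNA replicate 2, and only the leave-out of Eif3m siRNA replicate 1 kept the fall); Cd74, the class II invariant chain, went from 346, 379 and 417 CPM to 762, 541 and 621 CPM (0.75 ± 0.15 SE). None of the 3 cholangiocyte, 2 lymphocyte or 5 erythroid markers tested was called by edgeR or by DESeq2, and 0 of them had an unadjusted p below 0.05; without Eif3m siRNA replicate 1, 4 erythroid markers and 1 lymphocyte marker fell.

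The RNA libraries of the same 6 mice allow each footprint change to be set against that of the mRNA. In 1 model over the 12 libraries, the footprint change differed from the RNA change in 4 of 14451 genes (0.0277%), and 1138 had an unadjusted p below 0.05, where 723 are expected. With the mouse as a block, which uses the fact that both libraries came from 1 liver, 19 genes were called, 7 with footprints above RNA and 12 below. For most groups the footprint and RNA medians had the same sign: 0.75 and 0.43 for large-subunit ribosomal proteins, 0.81 and 0.52 for small-subunit ones, 0.92 and 1.07 for the integrated stress response, 0.81 and 0.69 for p53 targets, -0.74 and -0.58 for fatty acid synthesis, and -0.85 and -0.63 for cholesterol synthesis. No ribosomal protein gene passed the test of the difference, but few genes of any kind did. The median difference was 0.36 for large-subunit and 0.35 for small-subunit genes, against 0.02 over all genes tested.

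The ferritin light chain gene was an exception, and the heavy chain gene was one only with the mouse as a block. The light chain gene Ftl1 had 613, 632 and 485 CPM of footprints in controls and 1209, 933 and 1328 CPM after Eif3m siRNA, so every Eif3m siRNA mouse was above every control. Its RNA was 1402, 1306 and 1351 CPM and then 1109, 987 and 1184 CPM, lower in every Eif3m siRNA mouse. The difference between the changes was 1.29 ± 0.19 SE (adjusted p = 0.012, and 2.8e-06 with the mouse as a block). The heavy chain gene Fth1 had 505, 627 and 451 CPM and 828, 779 and 959 CPM of footprints, and 1455, 1451 and 1469 CPM and 1199.6, 1145 and 1283 CPM of RNA, a difference of 0.95 ± 0.17 SE (adjusted p = 0.066, and 0.00032 with the block). Translation of both mRNAs is known to be held back by iron regulatory proteins when iron is low. An unnamed gene model with nearly the same counts as Ftl1 in each mouse was also called, and reads may be divided between them. When both days were fitted together, the day 9 footprint rises of Ftl1 and Fth1 had adjusted p values of 0.063 and 0.071.

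Footprints without a matching loss of RNA fell for Eif4ebp2, whose RNA was 29.1, 34.4 and 38.01 CPM in controls and 27.3, 28.6 and 28.7 CPM after Eif3m siRNA, against the footprint fall given above (difference -1.22 ± 0.19 SE, adjusted p = 0.023, and 0.012 with the block). The phosphatase gene Ptp4a2 had 14.2, 15.96 and 18.98 CPM and 8.25, 7.5 and 7.15 CPM of footprints, and 43.4, 49.8 and 46.96 CPM and 53.5, 48.9 and 52.2 CPM of RNA (difference -1.27 ± 0.18 SE, adjusted p = 0.012). With the mouse as a block, Pprc1 was added among genes whose footprints gained over RNA (2.02 against 0.65, adjusted p = 0.0305), and the bile salt export pump gene Abcb11 among those that lost (-0.54 against 0.21, adjusted p = 0.00202). These calls depended on single mice. With both libraries of 1 mouse left out, 0 to 2 genes were called: 1 without control replicate 1, 2 without Eif3m siRNA replicate 2 and none without any of the other 4 mice. Eif3m itself fell in both, with log2 changes of -3.60 in footprints and -3.27 in RNA (difference -0.36 ± 0.16 SE, adjusted p = 0.59).

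**Figure D4:**
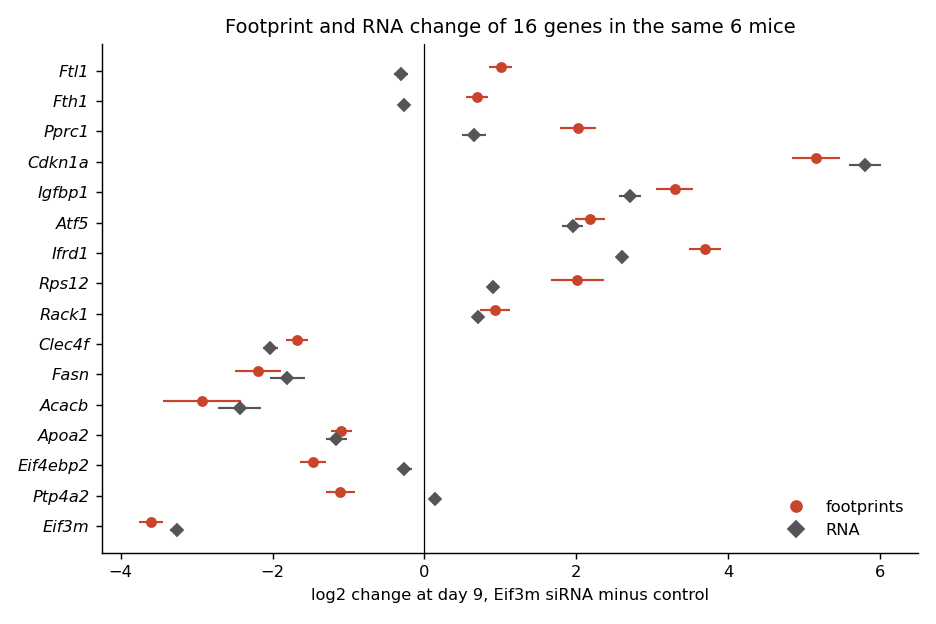
For 16 genes, the log2 change of footprints (red circles) and of RNA (grey diamonds) in the same 6 mice, Eif3m siRNA minus control, with bars of 1 SE from the edgeR fits. Ftl1 and Fth1 have footprint changes of 1.00 and 0.70 and RNA changes of -0.31 and -0.27, and Eif4ebp2 has -1.47 and -0.26.

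Footprints of 2 mice per group at day 13 were set beside those of day 9. The days are different mice and libraries, with different series of sample codes in the titles. Day and set therefore cannot be told apart, and no mouse was followed over time. In 1 model over the 10 footprint libraries, the siRNA effect differed between the days in 100 of 12213 genes (0.819%), 27 with a higher and 73 with a lower change at day 13. Among non-parenchymal genes that rose at day 9, Col1a1, Col3a1 and Lyz2 were below controls at day 13, whereas Itgam, with 17.0 and 21.7 CPM and then 50.7 and 48.0 CPM, was above them. Col1a1 had 97.3 and 107 CPM in the day 13 controls and 28.2 and 21.95 CPM in the day 13 Eif3m siRNA mice, a change of -2.08 against 1.38 at day 9 (adjusted p of the difference = 1.4e-06). Col3a1 changed by -1.14 against 1.16, and Lyz2 by -0.72 against 1.56 (both adjusted p = 3.5e-05). G6pc had 135 and 111 CPM and 112 and 82.9 CPM at day 13, a change of -0.36 against 2.21 (adjusted p = 0.012). Col3a1 had 197 and 204 CPM in the day 13 controls and 109 and 76.2 CPM in the day 13 Eif3m siRNA mice. Lyz2 had 70.7 and 71.9 CPM and then 42.8 and 43.4 CPM. For Col1a1, Col3a1, Lyz2 and G6pc the controls differed more between the days than the Eif3m siRNA mice did.

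Stress genes did not share 1 direction between the days. Gadd45a changed by 4.14 at day 13 against 1.85 at day 9 (adjusted p = 0.015), and Gdf15 by 4.97 against 1.66 (adjusted p = 0.041), whereas Ddit4, an mTORC1 inhibitor induced by stress, had a log2 value of -1.71 against 0.66 (adjusted p = 0.017). Eif3m changed by -3.60 at day 9 and -4.61 at day 13, and Cdkn1a by 5.16 and 5.51; neither difference passed (adjusted p = 0.22 and 0.904). With 2 mice per group at day 13, single mice decided the number of calls: 7 genes without day 13 Eif3m siRNA replicate 2, 24 without day 13 control replicate 2, 42 without day 13 control replicate 1, 52 without day 9 control replicate 2, 59 without day 9 Eif3m siRNA replicate 3 and 173 without day 9 Eif3m siRNA replicate 1.

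**Figure D5:**
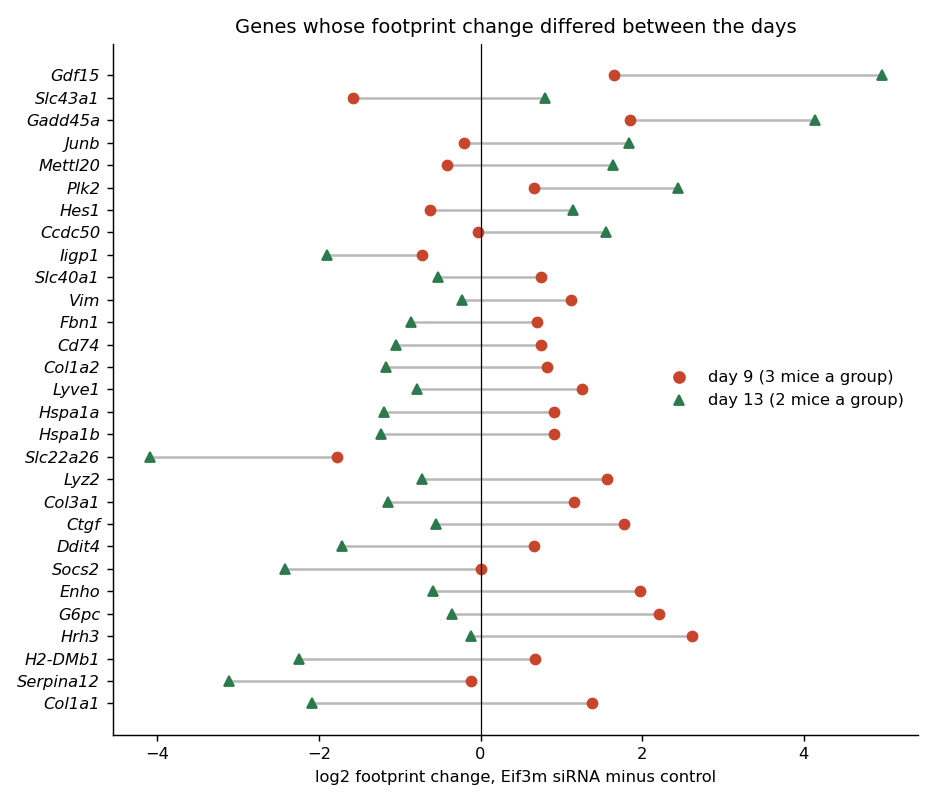
Log2 footprint change, Eif3m siRNA minus control, at day 9 (red circles, 3 mice a group) and day 13 (green triangles, 2 mice a group) for 29 genes whose change differed between the days. Col1a1 had 1.38 at day 9 and -2.08 at day 13, and Gdf15 had 1.66 and 4.97. The days are different mice and libraries.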

How the data were processed

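Ribosome footprints (ART-seq libraries) were counted in the livers of 6 mice at day 9, 3 per siRNA. The deposited values are expected counts per gene symbol, made by the authors; cutadapt, Bowtie and Bowtie2 are named per the submitters' processing notes, but versions, the genome build and how reads were assigned to genes were not given in the sources used here. Among nonzero values 44.3% are not whole, so reads appear divided among genes, and copies and overlapping genes are uncertain. Other named genes that overlap small nucleolar RNA genes in the annotation include Eif3a, Eif4g2, Eef1b2 and Serpinc1. No step separated strands, reading frames or footprint lengths here.

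Counts of the 38784 symbols were rounded. In R 4.3.3 with edgeR 4.0.16, day 9 footprints were fitted alone: filterByExpr by group (11522 genes kept), TMM, robust quasi-likelihood F test, Benjamini-Hochberg adjustment over all genes kept, two-sided, called at an adjusted p below 0.05. The SE is the size of the log2 change divided by the square root of F. RNA of the same mice entered 1 model of 12 libraries for the footprint minus RNA difference, and the 4 day 13 footprint libraries 1 model of 10 for the difference between days. An exact test on 3 against 3 mice cannot go below a p of 0.1, so tests use models that pool the spread across genes.

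Total counts were 4502229 to 7689829. Replicates had Pearson r of 0.971 to 0.987 on log2 CPM and a chi-square per gene of 7.25 to 17.6, so none was a duplicate. Footprint and RNA libraries were paired by the sample code shared in their titles. Their deviations were correlated in all 6 mice (0.18 to 0.60). Libraries of different mice were not compared in this way, so these values do not test the pairing. The same replicate number in the 2 groups names different mice (r of -0.22, -0.06 and 0.02).

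The 52 gene lists (1361 entries, 1357 in the table) and the members described were chosen with earlier results of these data known, so lists are described by counts and medians without a test. Named genes are the eIF3 subunits, the 15 largest rises and falls with at least 5 CPM and groups that do not overlap, up to 6 called members of at least 5 CPM per list or the 2 most abundant where none was called, and up to 8 genes per direction of each difference test; other genes are said to be chosen after their values were seen or given as values within their list. Gene models without a proper symbol (118 rises, 59 falls) are not named, and some genes are not reported here. The fits were also run on simulated counts. Alternatives were DESeq2 1.42.0, its size factors, library totals alone, no filter, at least 5 CPM, all 10 footprint libraries, a replicate or animal block, counts rounded down, no robust moderation, and each mouse left out; with 1 mouse left in a day 13 group, it is assumed to vary like the others.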

Additional observations from a re-analysis of the deposited data

Results flagged for a closer look

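The siRNA effect on footprints differed between day 9 and day 13, by the test of the difference over the 10 footprint libraries, in 29 genes named here. Day cannot be told apart from the set of mice and libraries. Values are the log2 change at day 13 minus that at day 9, each with an adjusted p below 0.05 from edgeR's quasi-likelihood test with Benjamini-Hochberg adjustment over all 12213 genes. They rest on 2 mice per group at day 13, and the count of all such calls was 7 without day 13 Eif3m siRNA replicate 2.

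Among matrix, fibroblast and endothelial genes the differences were Col1a1 -3.44, Col3a1 -2.28, Ctgf -2.32, Lyve1 -1.98, Col1a2 -1.96, Fbn1 -1.57 and Vim -1.32. Among immune and antigen presentation genes they were H2-DMb1 -2.92, Lyz2 -2.27, Cd74 -1.78 and Iigp1 -1.16. Among stress and signalling genes the differences were Socs2 -2.41, Ddit4 -2.37, Hspa1b -2.13, Hspa1a -2.09 and Hrh3 -2.71; Hspa1a and Hspa1b are near-identical copies and make up 1 measurement. Among genes of metabolism, secretion and transport they were Serpina12 -2.97, G6pc -2.55, Enho -2.47, Slc22a26 -2.26 and Slc40a1 -1.25.

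Higher at day 13 relative to day 9 were the stress and early-response genes Gdf15 3.31, Gadd45a 2.31, Plk2 1.79, Junb 2.04 and Hes1 1.78, and also Slc43a1 2.37, Mettl20 2.04 and Ccdc50 1.62. Changes of opposite sign on the 2 days, such as 0.75 and -1.04 for Cd74 or -1.58 and 0.79 for Slc43a1, stand beside changes that were larger at day 13, such as 1.66 and 4.97 for Gdf15.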

How the results depend on the processing

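The number of genes called in day 9 footprints was 1462, and was within 1.5 times of that with DESeq2 size factors (1466), DESeq2 (1303), no filter (1954), at least 5 CPM (1323), counts rounded down (1451), no robust moderation (1467) and all 10 libraries (1801). With library totals alone it was 2310 (1906 rises, 404 falls). Leaving out a mouse gave 755 to 2010, lowest without control replicate 2, then 881 without control replicate 1, and highest without Eif3m siRNA replicate 1, the shallowest library. With a replicate block, where the number pairs no mice, 1084 genes were called. No named gene turned its direction where it was called, and of 223 named genes called at day 9, 144 were called in every alternative. The footprint minus RNA difference was called in 4 genes, in 65 with no filter, in 26 with DESeq2, in 19 with the replicate block for the animal, and in 0 to 2 with 1 mouse left out. The difference between days was called in 100 genes, in 75 with the replicate block, in 242 with no filter, and in 7 to 173 with 1 mouse left out. The cause of these shifts was not tested. Depth limits low genes: the median SE of a log2 change was 0.34 under 5 CPM and 0.13 at 100 CPM or more.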
